A study of Homo sapiens with 9 samples.

Results

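The genes examined were the zinc transporters, the metallothioneins and MTF1, the transcription factor that senses zinc. They were chosen by gene symbol from a list of 34. The table of 19930 genes held a row for 33 of them, namely 13 zinc importers of the SLC39 (ZIP) family, 9 zinc exporters of the SLC30 (ZnT) family, 10 metallothioneins and MTF1. SLC30A10 had no row. A mean of at least 1 FPKM (fragments mapped to a gene, per kilobase of transcript and per fixed number of mapped fragments) over the 9 libraries was required for testing, and 25 of the 33 passed.

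Zinc is a structural and catalytic cofactor of many proteins, and cells keep its free cytosolic level very low. SLC39 proteins move zinc into the cytosol from outside the cell or from organelles, and SLC30 proteins move it out of the cytosol or into vesicles. Metallothioneins are small cysteine-rich proteins that bind zinc and copper. When zinc rises, MTF1 binds metal response elements before the metallothionein genes and before SLC30A1, which is how transcription of both is known to respond to zinc.

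RNA was examined in cells labelled as MDA-MB-453, an established human breast cancer cell line. They had Lipofectamine 2000 transfection of si-LINC00673-1, si-LINC00673-2 or the control si-NC, with 3 libraries per group. Both siRNAs are directed against the long noncoding RNA LINC00673, whose own level is not analysed here, and the labels give harvest at 48 h for the qRT-PCR cells. All 3 groups went through the same transfection, and no untransfected cells were analysed here. The labels do not say whether the libraries of a group came from separate cultures, so the P values measure the spread between these libraries, which may be technical. The spacing of the lowest FPKM values put the depth of a library at 23.4 to 27.9 M (10 to the sixth) fragments, an estimate. Within a group, log2 values correlated across genes at 0.9945 to 0.9959, and no library stood apart.

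Among the luminal markers, the keratins KRT8, KRT18 and KRT19 averaged 3617, 2433 and 1180 FPKM with si-NC, and FGFR4 and ERBB2 averaged 31.9 and 17.6 FPKM. The luminal transcription factor FOXA1, for which this line is known, was at 0 to 0.04 FPKM over the 9 libraries, and GATA3 and SPDEF reached at most 0.88 and 1.24 FPKM. In FOXA1, GATA3 and SPDEF the profile did not match the labelled line in any of the 3 groups. The luminal sum ranged from 6945 to 7586 FPKM in the si-NC libraries, from 5772 to 6405 in those of si-LINC00673-1 and from 5909 to 6582 in those of si-LINC00673-2. By the limits given below, KRT18 (log2 fold changes -0.46 and -0.48) and FGFR4 (-0.53 and -0.71) were called lower with both siRNAs. ERBB2 was called lower with si-LINC00673-2 alone (-0.45), and KRT8 and KRT19 with neither. Over all tested genes, 15.5% and 23.0% were called lower. After GC correction, FGFR4 lost both calls (-0.22 and -0.36). KRT18 lost the second there (-0.35) and under median ratio scaling (-0.38). Markers of other cells (PTPRC, COL1A1, PECAM1, KRT5 and KRT14) summed to between 4.09 and 4.90 FPKM in the si-NC libraries, between 5.96 and 6.47 in those of si-LINC00673-1 and between 6.06 and 7.88 in those of si-LINC00673-2. Only COL1A1, a fibroblast collagen, passed the filter among these 5, and PTPRC was at 0 in every si-NC library. COL1A1 was called higher with both siRNAs (log2 fold changes 0.44 and 0.62), where 11.0% and 10.9% of all tested genes were. The part of COL1A1-expressing cells in the results that follow was not tested.

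Sequences before 4 of the genes are shown because the metal response element is the site through which MTF1 acts on metallothionein genes and SLC30A1. The first 3 belong to metallothioneins with very different levels in these cells, and the fourth to the exporter SLC30A1. Each is the 250 bases before the gene start in RefSeq on GRCh38.p14, written 5′ to 3′ on the strand of the gene, with matches to the core TGCACNC or TGCGCNC on either strand in capitals. MT2A lies at chr16:56608334-56608583 on the plus strand, MT1X at chr16:56682220-56682469 on the plus strand, MT1H at chr16:56669564-56669813 on the plus strand, and SLC30A1 at chr1:211579162-211579411 on the minus strand.
MT2A: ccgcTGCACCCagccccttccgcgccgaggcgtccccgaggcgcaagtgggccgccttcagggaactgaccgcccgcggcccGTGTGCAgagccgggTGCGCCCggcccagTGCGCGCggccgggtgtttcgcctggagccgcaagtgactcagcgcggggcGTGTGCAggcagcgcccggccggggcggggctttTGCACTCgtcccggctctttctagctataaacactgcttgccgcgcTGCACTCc
MT1X: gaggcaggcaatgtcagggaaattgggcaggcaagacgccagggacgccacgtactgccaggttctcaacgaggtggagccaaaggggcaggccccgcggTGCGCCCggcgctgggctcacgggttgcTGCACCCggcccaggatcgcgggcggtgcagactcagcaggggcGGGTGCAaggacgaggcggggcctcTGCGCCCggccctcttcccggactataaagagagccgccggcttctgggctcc
MT1H: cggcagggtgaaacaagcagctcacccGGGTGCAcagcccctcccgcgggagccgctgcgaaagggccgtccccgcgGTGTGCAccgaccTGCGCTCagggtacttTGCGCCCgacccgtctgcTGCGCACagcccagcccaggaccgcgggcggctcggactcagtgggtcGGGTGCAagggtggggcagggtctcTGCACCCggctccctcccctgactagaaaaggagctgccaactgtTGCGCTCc
SLC30A1: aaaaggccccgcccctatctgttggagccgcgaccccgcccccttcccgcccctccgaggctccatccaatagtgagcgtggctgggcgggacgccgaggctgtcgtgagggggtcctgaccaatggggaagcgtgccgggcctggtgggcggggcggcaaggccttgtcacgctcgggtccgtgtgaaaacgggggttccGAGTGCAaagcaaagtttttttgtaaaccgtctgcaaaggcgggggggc

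The window of MT2A held 7 matches, that of MT1X 4, that of MT1H 8, that of MT1B 3 and that of SLC30A1 1, with matches that overlap each other counted as 1. Among 35116 promoters of the same length, 24.8% held at least 1 match, 1.05% at least 3 and 0.208% at least 4. The promoter table covered 25 of the 34 genes, counted over all their starts. It held no window for MT1A, MT1E, MT1F, MT1G, MT1M, MT3, SLC39A4, SLC39A14 or SLC30A8. Of the tested metallothioneins, only MT2A and MT1X were therefore scanned. Of the 25 genes covered, 14 held a match at a start and 11 held none. MTF1 and SLC39A5 were among the 11, which says only that these letters were not in the window. A gene with several starts had more windows in which to match, so these counts cannot be set against the 24.8%, a share of single windows. SLC30A2, which was near 0 FPKM, held 3, and SLC30A3, which fell with both siRNAs, held 2 at one start and 1 at the other. A match is a description of the letters and not a measured binding site.

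**Figure D1:**
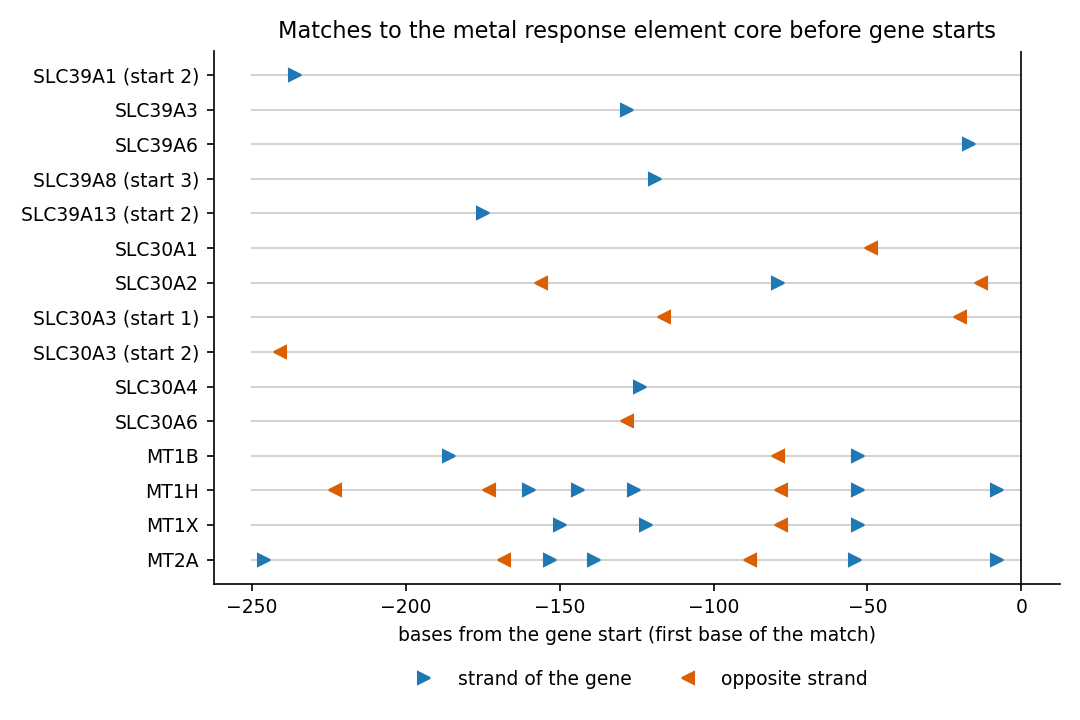
Matches to the metal response element core in the 250 bases before gene starts, for each start of a member that held at least 1. The x axis gives bases from the start, and arrows show the strand of each match. The 4 metallothionein windows hold 3 to 8 matches each while the transporter windows hold 1 to 3. MT1A, MT1E, MT1F, MT1G, MT1M and MT3 had no window to scan.

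Each siRNA was compared with si-NC on log2(FPKM + 1), and a gene was called when its fold change on that scale was at least 1.3 and its Benjamini-Hochberg adjusted P from limma over all 12884 tested genes was at most 0.05. With si-LINC00673-1, 7 of the 25 tested members were called higher, where 11.0% of all tested genes were, and 4 were called lower, where 15.5% were. With si-LINC00673-2, 7 were called higher against 10.9% of all genes and 6 lower against 23.0%. The members called higher with both siRNAs were MT1A, MT1E, MT1X, MT2A, MT3 and SLC30A1, and those called lower with both were SLC39A3, SLC39A4, SLC39A5 and SLC30A3. Both comparisons use the same 3 si-NC libraries, so a deviation of those libraries moves both. Fewer cells that express a gene and less of its RNA per cell cannot be told apart in these bulk libraries.

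Of 7 tested metallothioneins, 5 were called higher with si-LINC00673-1 and 6 with si-LINC00673-2, where 11.0% and 10.9% of all genes were. None of the 7 was called lower, where 15.5% and 23.0% of all genes were. Their median log2 fold changes were 0.58 and 0.92, beside 0.0032 and -0.095 over all tested genes. Of 11 tested importers, none was called higher with either siRNA, where 11.0% and 10.9% of all genes were. Of the same 11, 3 were called lower with si-LINC00673-1 and 4 with si-LINC00673-2, where 15.5% and 23.0% of all genes were. The importer medians of -0.07 and -0.14 were near those of all genes. Of 6 tested exporters, 1 was called higher and 1 lower with si-LINC00673-1, and 1 higher and 2 lower with si-LINC00673-2. Shares over all genes were 11.0% higher and 15.5% lower, and 10.9% and 23.0%. With 6 genes, these counts were near those shares.

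**Figure D2:**
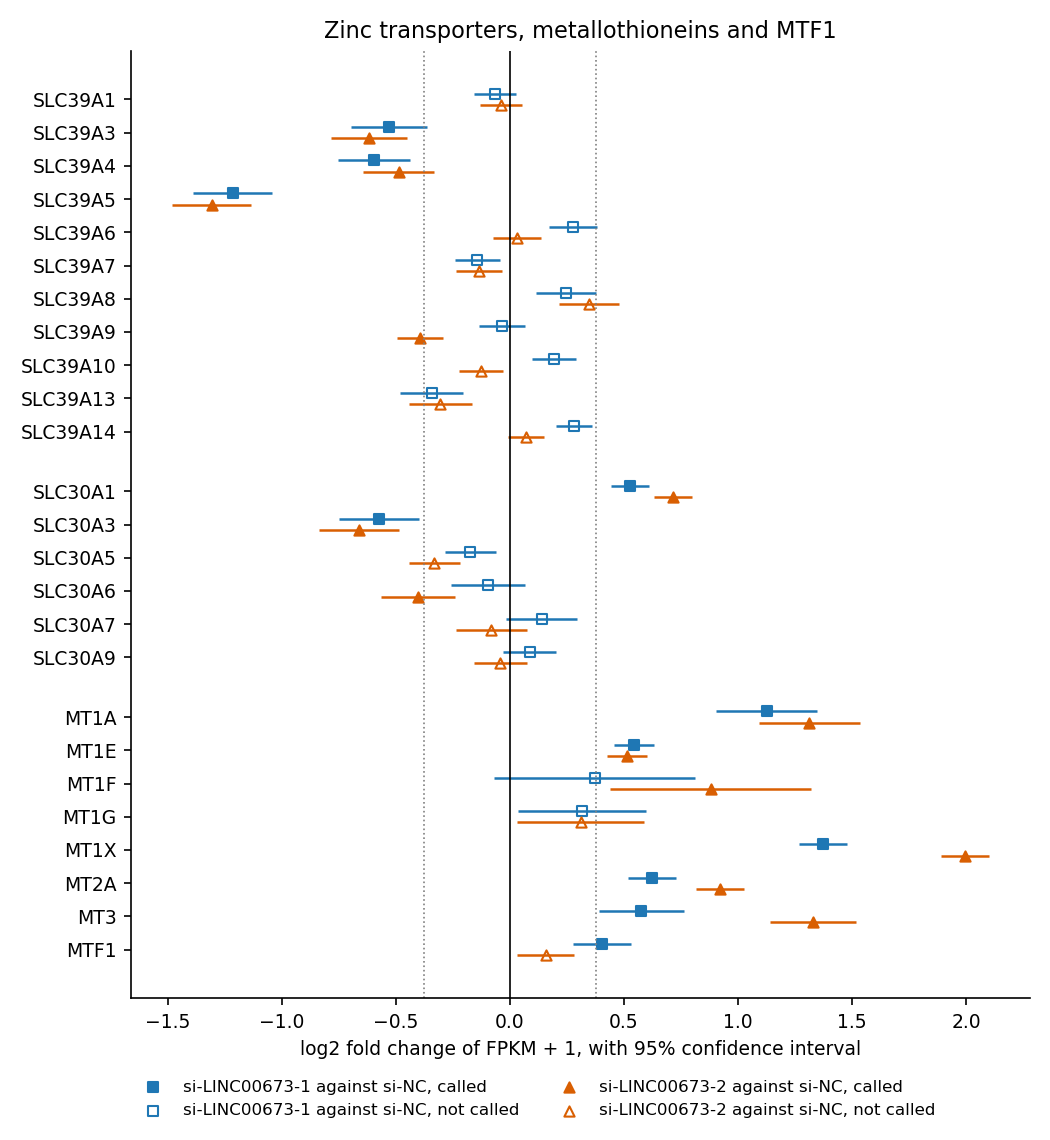
Log2 fold change of FPKM + 1 for the 25 tested members against si-NC, with 95% confidence intervals from limma; filled symbols were called and dotted lines mark the 1.3-fold limit. All 7 tested metallothioneins lie to the right of 0, MT1X reaches 1.99 and SLC39A5 lies at -1.22 and -1.31.

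MT2A and MT1X carried most of the metallothionein RNA. MT2A, the most abundant metallothionein here, was at 493, 426 and 457 FPKM in the 3 si-NC libraries (in the order of no suffix, r1 and r2 in the labels), at 703, 719 and 697 with si-LINC00673-1 and at 860, 846 and 898 with si-LINC00673-2. The 3 groups did not overlap, and the order was si-NC, si-LINC00673-1, si-LINC00673-2. MT2A had log2 fold changes of 0.62 (SE 0.05, adjusted P = 2.55e-06, limma) and 0.92 (SE 0.05, adjusted P = 1.33e-07, limma). In the GRCh37 coordinates of the table MT2A lies at chr16:56642478-56643409, with MT3 on one side of it and the MT1 genes on the other.

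MT1X, at chr16:56716382-56718108 on the far side of the cluster, had the largest fold change of the members. It was at 53.0, 47.7 and 55.1 FPKM with si-NC, at 135, 135 and 137 with si-LINC00673-1, and at 216, 207 and 206 with si-LINC00673-2. Every library of each siRNA was above every si-NC library, and the libraries of si-LINC00673-2 were above those of si-LINC00673-1. The log2 fold changes were 1.37 (SE 0.05, adjusted P = 2.68e-08, limma) and 1.99 (SE 0.05, adjusted P = 1.01e-09, limma), which placed MT1X 43rd and 28th from the top among the tested genes. The ratio of the mean FPKM was 2.61 and 4.04.

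MT1A and MT1E lie between MT2A and MT1X. MT1A was at 10.8, 10.9 and 8.59 FPKM with si-NC, at 22.6, 24.7 and 22.2 with si-LINC00673-1 and at 30.1, 23.8 and 25.9 with si-LINC00673-2. Both siRNA groups lay above si-NC and overlapped each other. For MT1A the log2 fold changes were 1.13 (SE 0.10, adjusted P = 6.48e-06, limma) and 1.31 (SE 0.10, adjusted P = 1.60e-06, limma). MT1E was at 21.3, 20.7 and 21.5 FPKM with si-NC, at 30.8, 30.02 and 33.04 with si-LINC00673-1 and at 31.0, 30.2 and 30.6 with si-LINC00673-2. Its siRNA groups again overlapped each other and not si-NC, with log2 fold changes of 0.54 and 0.51 (adjusted P = 1.83e-06 and 1.64e-06, limma).

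MT3, a metallothionein best known from brain, was low but rose with both siRNAs. It was at 2.10, 2.64 and 2.86 FPKM with si-NC, at 4.05, 4.76 and 3.96 with si-LINC00673-1 and at 7.74, 7.91 and 7.87 with si-LINC00673-2. The 3 groups did not overlap, and the values correspond to about 28.2 to 96.5 fragments per library at the estimated depth. The log2 fold changes were 0.58 (adjusted P = 0.000194, limma) and 1.33 (adjusted P = 5.31e-07, limma).

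MT1F and MT1G varied more between libraries. MT1F was at 4.40, 3.46 and 7.34 FPKM with si-NC, at 6.78, 7.05 and 5.94 with si-LINC00673-1 and at 11.8, 9.16 and 8.63 with si-LINC00673-2. The r2 library of si-NC lay above all 3 libraries of si-LINC00673-1 and below all 3 of si-LINC00673-2. MT1F was called with si-LINC00673-2 (log2 fold change 0.88, SE 0.20, adjusted P = 0.00253, limma) and not with si-LINC00673-1 (0.37, SE 0.20, adjusted P = 0.124, limma), where leaving out that si-NC library gave a called value of 0.63 and leaving out the r1 library of si-NC gave 0.17. MT1G averaged 11.5 ± 2.25 FPKM with si-NC, 14.5 ± 2.16 with si-LINC00673-1 and 14.3 ± 0.656 with si-LINC00673-2 (SD, n = 3), the groups overlapped, and its log2 fold changes of 0.32 and 0.31 stayed under the fold limit. Leaving out the si-NC library with no suffix, at 14.1 FPKM, brought both over the limit, to 0.46 and 0.45, as did GC correction, to 0.39 and 0.44.

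The other metallothioneins were near the floor. MT1B ranged from 0 to 0.25 FPKM, MT1H from 0 to 0.27 and MT1M from 0 to 0.42, which is at most 1.85, 2.04 and 3.75 fragments per library. MT1H, whose window holds 8 matches to the core, was at 0 in 7 of the 9 libraries, while MT2A and MT1X, with 7 and 4, were at no less than 426 and 47.7 FPKM in any library. These 3 genes were below the filter. In a fit with no filter, MT1M, which had 0.42, 0.22 and 0.32 FPKM in the libraries of si-LINC00673-1 and 0 in all 3 of si-LINC00673-2, was called lower with si-LINC00673-2 than with si-LINC00673-1 (log2 difference -0.40, adjusted P = 0.00464, limma), a difference of 1.85 to 3.75 fragments against 0. In that fit MT1B and MT1H were called in no comparison.

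**Figure D3:**
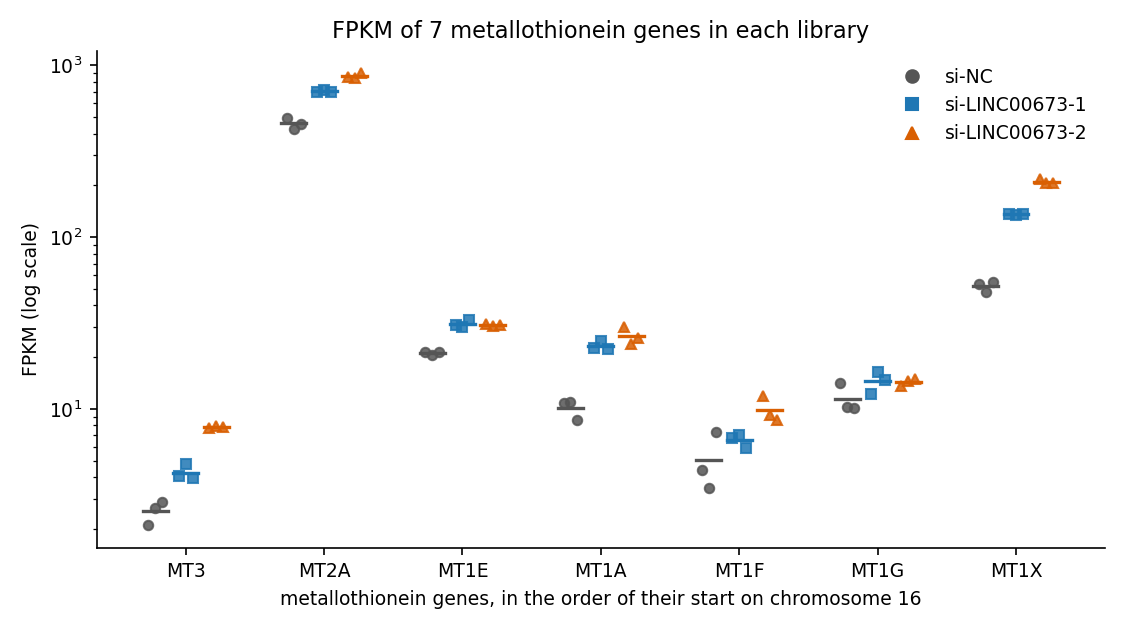
FPKM (log scale) of the 7 tested metallothioneins in each of the 9 libraries, with a line at each group mean and genes in their order on chromosome 16. The si-NC libraries lie below both siRNA groups for MT3, MT2A, MT1E, MT1A and MT1X, and overlap with si-LINC00673-1 for MT1F and with both for MT1G.

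Summed over MT1 genes and MT2A, FPKM was 559 ± 38.8 with si-NC, 918 ± 11.9 with si-LINC00673-1 and 1159 ± 26.9 with si-LINC00673-2 (SD, n = 3). These sums were 0.107%, 0.186% and 0.225% of all FPKM in the table. MT2A made up 82.1%, 76.9% and 74.9% of them, so its share fell while its level rose, since MT1X and MT1A rose by larger factors. The groups did not overlap in the sum or in the share of MT2A, and no test is given for these sums.

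The siRNAs differed from each other in 2 metallothioneins. In si-LINC00673-2 against si-LINC00673-1, 2.06% of all tested genes were called higher and 5.32% lower. Among the 25 members, MT1X (log2 fold change 0.62, SE 0.05, adjusted P = 1.74e-05, limma) and MT3 (0.75, SE 0.08, adjusted P = 0.000150, limma) were called higher and none lower. The libraries of the 2 groups did not overlap for either gene. MT2A differed by 0.30 (95% confidence interval 0.19 to 0.40) and MT1F by 0.51 (0.07 to 0.95), neither of them called, though median ratio scaling brought both past the limits (0.40 and 0.61). MT1A differed by 0.19 (-0.03 to 0.41), and MT1E by -0.03 (-0.12 to 0.06), a sign that turned with the scaling of the libraries (0.07).

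Metallothionein transcripts are short and alike, which bears on how fragments were assigned. The tested ones were 396 to 582 bases long, against 2018 to 8214 bases for the tested transporters. Tested genes in the same bin of transcript length had a median log2 fold change of -0.06 with si-LINC00673-1 and 0.03 with si-LINC00673-2. In reference transcripts, windows of 50 bases were shared with another metallothionein gene or pseudogene in 20.2% of MT1G, 15.96% of MT1X, 9.81% of MT2A, 5.76% of MT1A, 1.77% of MT1E and 0.272% of MT1F, and in none of MT3. Of windows of 100 bases, none were shared for these 7 genes. Only identical windows were counted, so windows that differ in a few bases are not in these shares. The reference transcript used was the one nearest in length to the deposited length, and for MT1E it was shorter than those 506 bases. How the authors treated fragments that match several genes is not given in the sources used here, so the split between MT1G, MT1X and their neighbours is less certain than the level of MT3.

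MTF1, the zinc-sensing factor, was called with one siRNA. It was at 2.24, 2.54 and 2.13 FPKM with si-NC, at 3.31, 3.46 and 3.33 with si-LINC00673-1 and at 2.70, 2.63 and 2.70 with si-LINC00673-2. Both siRNA groups lay above si-NC, and si-LINC00673-1 lay highest, unlike MT2A and MT1X, which were highest with si-LINC00673-2. The log2 fold changes were 0.40 (SE 0.06, adjusted P = 0.000146, limma) and 0.16 (SE 0.06, adjusted P = 0.0303, limma; not called). The difference of -0.25 between the siRNAs (95% confidence interval -0.37 to -0.12) was under the fold limit. The call with si-LINC00673-1 was lost after correction for GC content (0.33) or transcript length (0.36), and without the r2 library of si-NC (0.37).

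Among the exporters, SLC30A1, which carries zinc out across the plasma membrane, was called higher with both siRNAs. It was at 11.1, 11.4 and 10.9 FPKM with si-NC, at 16.7, 16.1 and 16.7 with si-LINC00673-1 and at 19.3, 19.3 and 18.1 with si-LINC00673-2, about 562 to 922 fragments per library. No group overlapped another. SLC30A1 had log2 fold changes of 0.53 (SE 0.04, adjusted P = 1.83e-06, limma) and 0.71 (SE 0.04, adjusted P = 1.55e-07, limma), and the 2 siRNAs differed by 0.19, which was not called. SLC30A1 lies at chr1:211748381-211752099 in the GRCh37 coordinates of the table.

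SLC30A3, which loads zinc into synaptic vesicles in neurons, fell with both siRNAs. It was at 5.14, 4.55 and 4.2 FPKM with si-NC, at 2.50, 2.81 and 3.02 with si-LINC00673-1 and at 2.44, 2.43 and 2.80 with si-LINC00673-2. Both siRNA groups lay below every si-NC library. SLC30A3 had log2 fold changes of -0.58 (SE 0.08, adjusted P = 0.000121, limma) and -0.66 (SE 0.08, adjusted P = 3.60e-05, limma).

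The exporters of the secretory pathway moved less. SLC30A6, which forms a complex with SLC30A5 in the Golgi, was at 3.55, 4.09 and 3.69 FPKM with si-NC, at 3.69, 3.15 and 3.58 with si-LINC00673-1 and at 2.88, 2.39 and 2.56 with si-LINC00673-2. The si-LINC00673-2 libraries lay below all others, and the log2 fold change was -0.40 (adjusted P = 0.000607, limma), while with si-LINC00673-1 it was -0.10 and not called. The call with si-LINC00673-2 was lost under median ratio scaling (-0.32), GC correction (-0.35) and length correction (-0.29), and without the r1 library of si-NC (-0.36) or of si-LINC00673-2 (-0.36). SLC30A5 averaged 12.9, 11.3 and 10.02 FPKM over si-NC, si-LINC00673-1 and si-LINC00673-2, with log2 fold changes of -0.18 and -0.33 under the fold limit, which the second passed without the si-NC library with no suffix (-0.38). SLC30A7, another exporter of the secretory pathway, averaged 3.37, 3.81 and 3.14 FPKM (0.14 and -0.08, the second at 0.01 after length correction). SLC30A9, which acts in mitochondria, averaged 28.7, 30.5 and 27.9 FPKM (0.09 and -0.04, the second at 0.06 under median ratio scaling).

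SLC39A3, SLC39A4 and SLC39A5, importers of the plasma membrane, were lower with both siRNAs, and SLC39A5 fell most of them. SLC39A5 was at 17.9, 16.9 and 17.5 FPKM with si-NC, at 7.46, 6.61 and 6.71 with si-LINC00673-1 and at 5.5, 7.06 and 6.82 with si-LINC00673-2. The siRNA groups overlapped each other and lay far below si-NC. The log2 fold changes were -1.22 (SE 0.08, adjusted P = 9.51e-07, limma) and -1.31 (SE 0.08, adjusted P = 3.54e-07, limma), the 130th and 137th largest falls among the tested genes. Its transcripts are 62.2% GC, tested genes of like GC content had median log2 fold changes of -0.32 and -0.35, and after subtraction of these the values were -0.90 and -0.95 and still called.

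SLC39A4, the importer through which the gut takes up dietary zinc, was at 50.8, 42.8 and 50.7 FPKM with si-NC, at 33.9, 30.3 and 30.1 with si-LINC00673-1 and at 33.0, 35.6 and 33.2 with si-LINC00673-2. Every siRNA library was below every si-NC library. SLC39A4 had log2 fold changes of -0.60 (SE 0.07, adjusted P = 4.50e-05, limma) and -0.49 (SE 0.07, adjusted P = 0.000140, limma), and length correction ended the second call (-0.36). SLC39A3 was at 11.0, 9.30 and 9.51 FPKM with si-NC, at 7.24, 6.43 and 6.04 with si-LINC00673-1 and at 5.76, 6.45 and 6.15 with si-LINC00673-2. Again the siRNA groups overlapped each other and not si-NC, with log2 fold changes of -0.53 and -0.62 (adjusted P = 0.000154 and 4.28e-05, limma).

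SLC39A9, an importer of the Golgi, was called with si-LINC00673-2 alone. It was at 12.7, 12.7 and 13.5 FPKM with si-NC, at 12.0, 12.7 and 13.2 with si-LINC00673-1 and at 9.90, 9.35 and 9.62 with si-LINC00673-2. The first 2 groups overlapped, and the third lay below both. The log2 fold change was -0.39 (SE 0.05, adjusted P = 2.95e-05, limma) with si-LINC00673-2, just past the fold limit, and -0.04 with si-LINC00673-1. That call was lost under median ratio scaling (-0.30), GC correction (-0.35) and length correction (-0.27), and without the r2 library of si-NC (-0.36) or the r1 library of si-LINC00673-2 (-0.38).

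**Figure D4:**
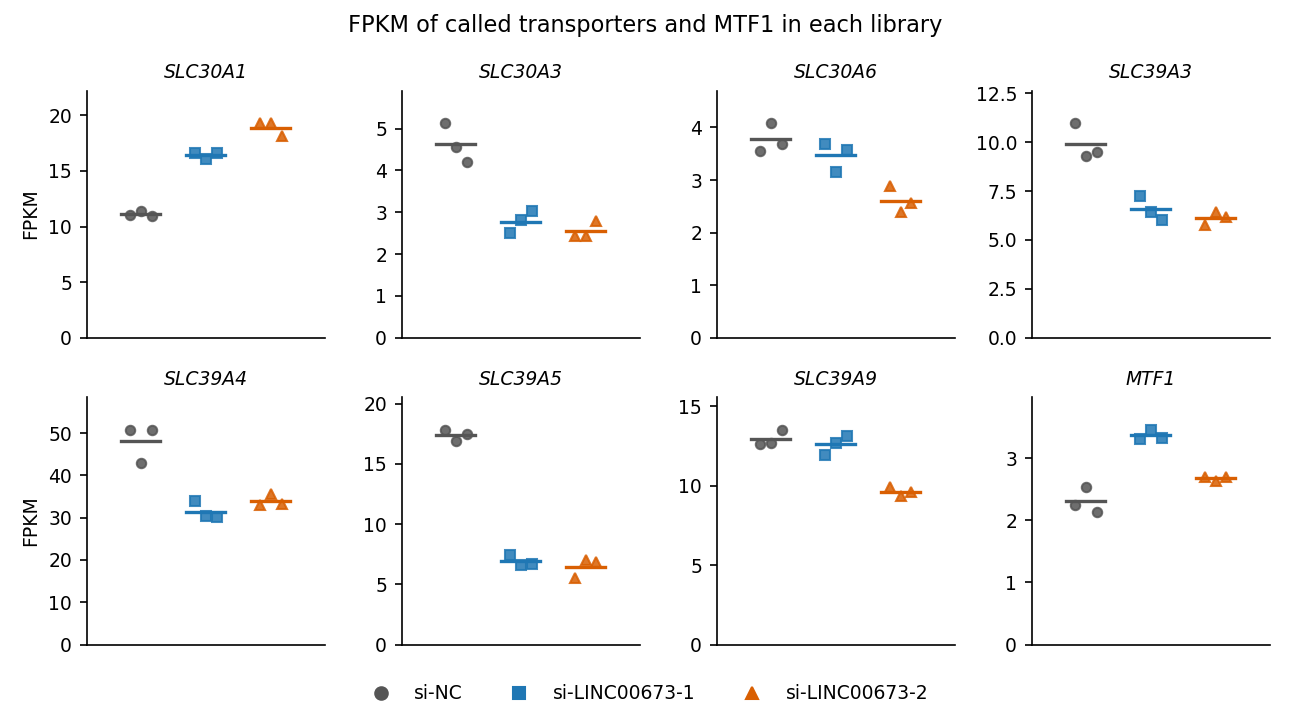
FPKM of the 7 transporters called in at least 1 comparison with si-NC, and of MTF1, in each library, with a line at each group mean and each axis starting at 0. SLC30A1 is higher in every siRNA library than in any si-NC library, and SLC30A3, SLC39A3, SLC39A4 and SLC39A5 are lower.

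The other 7 tested importers were not called with either siRNA. SLC39A1, the most abundant importer here, averaged 53.3, 50.8 and 51.8 FPKM over si-NC, si-LINC00673-1 and si-LINC00673-2, with log2 fold changes of -0.07 and -0.04 that turned to 0.01 and 0.13 after GC correction. SLC39A14, which also carries iron and manganese, averaged 33.9, 41.4 and 35.6 FPKM (0.28 and 0.07). SLC39A7, which releases zinc from the endoplasmic reticulum, averaged 35.4, 32.0 and 32.2 FPKM (-0.14 and -0.14).

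SLC39A6 and SLC39A10, a pair of related plasma membrane importers, averaged 5.37, 6.72 and 5.51 FPKM (0.28 and 0.03) and 5.76, 6.73 and 5.19 FPKM (0.19 and -0.13). Both were highest with si-LINC00673-1. SLC39A13, an importer of the secretory pathway, averaged 11.9, 9.17 and 9.46 FPKM (-0.34 and -0.30), and after GC correction its values were -0.03 and 0.05. SLC39A8, which also carries manganese and cadmium, averaged 1.79, 2.31 and 2.56 FPKM (0.24 and 0.35). Its value with si-LINC00673-2 passed the fold limit when 0.1 FPKM was added in place of 1 (0.49), under median ratio scaling (0.42), after length correction (0.44) and without the r1 library of si-LINC00673-2 (0.38).

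The transporters below the filter were near 0 in all 3 groups. SLC39A2 and SLC39A12 reached at most 0.03 and 0.02 FPKM, and SLC30A2 and SLC30A8 at most 0.05 and 0.01. SLC30A4, known from milk zinc secretion, ranged from 0.23 to 0.54 FPKM. Summed over the family, importer FPKM was 236 ± 6.21 with si-NC, 207 ± 3.29 with si-LINC00673-1 and 199 ± 5.77 with si-LINC00673-2 (SD, n = 3), and exporter FPKM was 65.0 ± 1.76, 68.8 ± 1.56 and 65.5 ± 3.27. The groups of the importer sum did not overlap between si-NC and either siRNA.

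Of 5 tested genes in a further list of zinc handling, 1 was called higher and 1 lower with si-LINC00673-1 (11.0% and 15.5% of all genes), and 1 higher and 2 lower with si-LINC00673-2 (10.9% and 23.0%). TMEM163, a zinc-binding vesicle transporter, averaged 31.0, 21.2 and 17.1 FPKM over the 3 groups (log2 fold changes -0.53 and -0.82). CBWD1, a zinc chaperone whose near-identical copies may share its fragments, averaged 15.1, 20.7 and 21.7 FPKM (0.43 and 0.50, the first at 0.34 and not called after GC correction).

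Copper and iron genes are given because metallothioneins also bind copper and several SLC39 proteins also carry iron. Of 11 tested copper genes, 1 was called higher and 1 lower with si-LINC00673-1 (11.0% and 15.5% of all genes), and 1 higher and 2 lower with si-LINC00673-2 (10.9% and 23.0%), near or below the shares of all genes. ATOX1, a copper chaperone, averaged 53.2, 89.2 and 94.3 FPKM (0.74 and 0.82), and CCS, the copper chaperone of SOD1, averaged 23.8, 9.28 and 8.79 FPKM (-1.27 and -1.35).

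Of 14 tested iron genes, 1 was called higher and 2 lower with si-LINC00673-1, and 2 higher and 3 lower with si-LINC00673-2, again near the same shares of all genes. TFRC, the transferrin receptor, averaged 34.8, 119 and 141 FPKM (log2 fold changes 1.75 and 1.99). PCBP2, an RNA-binding protein that also carries iron, averaged 332, 196 and 206 FPKM (-0.76 and -0.68). SLC25A28, a mitochondrial iron importer, averaged 10.4, 7.54 and 5.41 FPKM (-0.41 and -0.83), and its call with si-LINC00673-1 was lost after GC correction (-0.34), without the si-NC library with no suffix (-0.37) and without the r2 library of si-LINC00673-1 (-0.37).

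**Figure D5:**
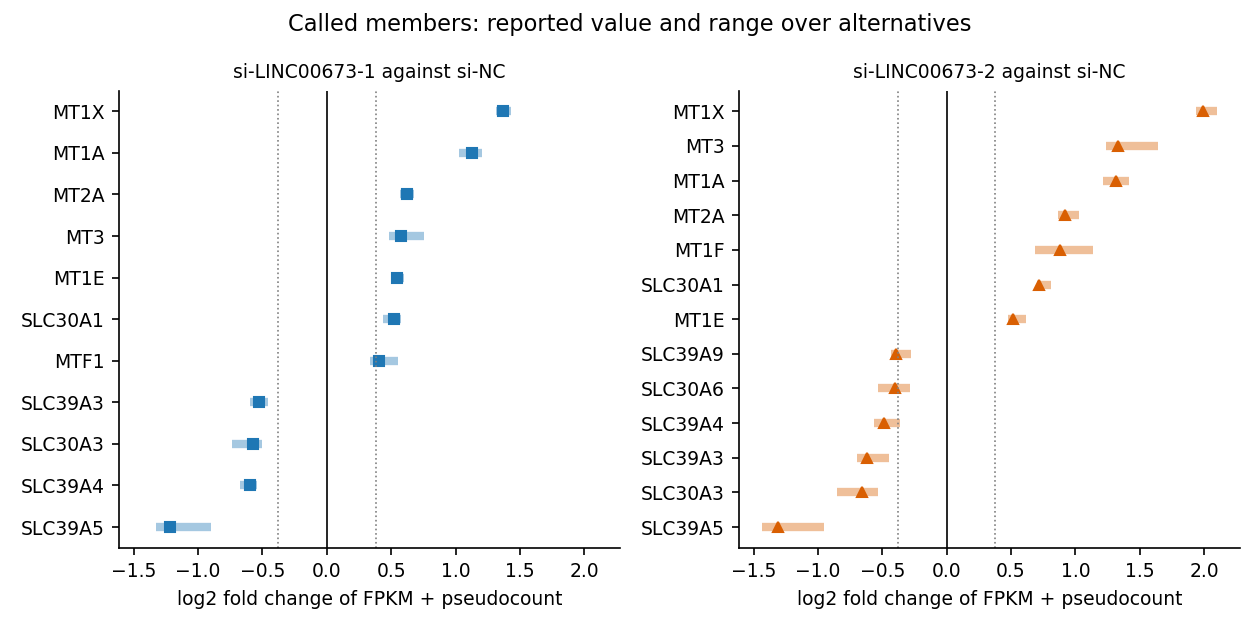
Log2 fold change of each called member as reported (symbol) and its range over the alternative settings (bar), with the 1.3-fold limit dotted. The bars of MT1X, MT1A, MT2A, MT1E, MT3, SLC30A1 and SLC39A5 stay beyond the limit in both comparisons, and those of SLC39A9, SLC30A6 and SLC39A4 with si-LINC00673-2 and of MTF1 with si-LINC00673-1 cross it.

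For MT1X the alternatives gave 1.31 to 1.43 with si-LINC00673-1 and 1.94 to 2.10 with si-LINC00673-2, for MT2A 0.57 to 0.68 and 0.87 to 1.03, and for SLC30A1 0.44 to 0.57 and 0.70 to 0.81. Each of these calls held in all 15 alternatives that kept the 1.3-fold limit and the adjusted P. With a limit of 2-fold, only MT1X of these genes kept its calls. The scaling of the libraries moved the balance of higher and lower calls. With si-LINC00673-2, 67.8% of all called genes were lower as reported, 53.1% under median ratio scaling, 49.8% after GC correction and 52.8% after length correction. The members then stood at 7 higher and 6 lower as reported, 9 and 4 under median ratio scaling, 8 and 4 after GC correction and 8 and 3 after length correction. With si-LINC00673-1 the share of lower calls was 58.3% as reported and 51.4% to 58.4% under these 3 settings. Between the siRNAs it was 72.0% as reported, 38% under median ratio scaling, 44.5% after GC correction and 48.7% after length correction, and no member was called lower in any of these.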

How the data were processed

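RNA sequencing of 9 libraries labelled as MDA-MB-453, 3 each of si-NC, si-LINC00673-1 and si-LINC00673-2, was examined. The groups came from the labels, whose numbering was taken to be that of the siRNAs. The authors sequenced total RNA on the BGISEQ-500 platform and deposited 1 table with the FPKM of each library per gene, rounded to 2 decimals. The submitters' processing notes name Bowtie2 version 2 and the build GRCh37.p13, and the counting tool is not given in the sources used here. FPKM are not counts, so a gene's depth is known only by estimate, and a short transcript carries few fragments at a given FPKM. In the table, 4 lines held no values and were left out. The authors' columns of ratios, P and q values between groups were not used. One marker gene is not reported here.

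Here FPKM were taken as log2(FPKM + 1), and genes averaging 1 FPKM or more were fitted in limma 3.58.1 (lmFit, and eBayes with a trend) in R 4.3.3, with all 9 libraries and the condition as the only factor. This tests 12884 genes. Fold changes on this scale understate those of low genes. Calls needed a fold change of at least 1.3 and a P of at most 0.05, limits the study also used, with P adjusted here by the Benjamini-Hochberg method over all tested genes. An exact permutation test of 3 against 3 libraries cannot give a P below 0.1 and was not used. In simulated data of the same size, 97.5% of 200 changed genes were recovered with 3 false calls for the first comparison. Every planted change was at least 2-fold, and far fewer genes were changed than were called in the data. Recovery of smaller changes, such as most of those called here, was therefore not measured. The alternatives were other added values, filters, fold limits and P values, a fit of only the libraries compared, a replicate block, median ratio scaling, GC and length correction in 20 bins, and each library left out.

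The members, the other gene lists and the motif were chosen with earlier results of these data known. Every member was named; each called in any comparison was given in every library, and of the other lists at most the 3 genes with the largest mean change among those called the same way with both siRNAs were named, apart from ZNF658, FTH1 and FTL, which were chosen after their values were seen. Promoters were RefSeq windows on GRCh38.p14, and shared windows were counted in GENCODE transcripts, without use of coordinates from the table. Figures were drawn in Python 3.11.15 with matplotlib 3.10.9.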

Additional observations from a re-analysis of the deposited data

Results flagged for a closer look

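MT1X and MT3 differed between the 2 siRNAs by the test of that difference in limma. The log2 fold change of si-LINC00673-2 against si-LINC00673-1 was 0.62 for MT1X and 0.75 for MT3, and every library of si-LINC00673-2 was above every library of si-LINC00673-1 for both. Groups of 3 libraries are too small to mark a single library as far from the others.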

How the results depend on the processing

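Of the called members with both siRNAs, MT1A, MT1E, MT1X, MT2A, MT3, SLC30A1, SLC39A3, SLC39A5 and SLC30A3 kept their call and direction under every alternative in which they were tested, other than the fold change limit of 2. With no fold change limit 19, 20 and 12 members were called in si-LINC00673-1 against si-NC, si-LINC00673-2 against si-NC and si-LINC00673-2 against si-LINC00673-1, where 64.4%, 70.8% and 44.0% of all tested genes were, and with a fold change of at least 2 the numbers were 3, 4 and 0, where 2.82%, 4.68% and 0.279% were. Between the siRNAs, 4 members were called when 0.1 or 0.01 FPKM was added, 2 higher and 2 lower in each case. Under median ratio scaling 4 were called, all of them higher. Leaving out 1 library gave 11 to 12, 12 to 15 and 2 to 3 called members.

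Signs near 0 turned in some settings. With si-LINC00673-1 against si-NC, SLC39A1 was 0.0083 after GC correction. With si-LINC00673-2 against si-NC, SLC30A9, SLC30A7 and SLC39A1 were 0.060, 0.000074 and 0.065 under median ratio scaling, and 0.080, 0.012 and 0.059 after length correction. After GC correction SLC30A9, SLC39A13 and SLC39A1 were 0.019, 0.050 and 0.13. Between the siRNAs, MT1E and MT1G were 0.074 and 0.095 under median ratio scaling, and 0.038 and 0.049 after GC correction. Leaving out 1 library of either siRNA gave -0.058 to 0.0087 for MT1E and -0.12 to 0.088 for MT1G, with turned signs without the r2 library of si-LINC00673-1 for both, and without its r1 library or the si-LINC00673-2 library with no suffix for MT1G. The cause was not tested.

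Deviations from the group means correlated at -0.239 to 0.104 between same-numbered libraries. Libraries with different numbers were not compared in this way, so these values cannot show whether a culture or batch was shared. With the number as a replicate block, 11, 13 and 2 members were called, as without it. Depth limits MT1B, MT1H and MT1M, with at most 3.75 fragments in a library.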

Other observations

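ZNF658, a zinc-responsive repressor, ranged from 0.49 to 0.54 FPKM in the si-NC libraries, from 0.18 to 0.32 in those of si-LINC00673-1 and from 0.12 to 0.16 in those of si-LINC00673-2. It was below the filter and was not tested, and its groups did not overlap; it was chosen after its values were seen. FTH1, the heavy chain of the iron store ferritin, averaged 3588, 4432 and 4813 FPKM over si-NC, si-LINC00673-1 and si-LINC00673-2, with log2 fold changes of 0.31 and 0.42 of which the second was called, and FTL, the light chain, averaged 614, 583 and 649 FPKM with neither called. These ferritin genes were also chosen after their values were seen.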
